A study of Mus musculus with 24 samples.

Results

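White adipogenesis was measured as the change from day 0 to day 5 in primary cultures of stromal vascular cells from mouse subcutaneous white fat. The genes described are those with a value above 0 in all 24 libraries of the deposited table, 5035 of 22418 rows (22.5%), and the comparison uses 8 of the 24 libraries. All cells came from the strain C57BL/6, from mice 2 to 3 weeks old per the study's methods. The day 0 group (white preadipocytes) was harvested at confluence, before induction. The day 5 group was grown for 2 days with insulin, dexamethasone, 3-isobutyl-methylxanthine (IBMX) and rosiglitazone, then for 2 days with insulin, then in serum alone. No control was kept to day 5 without these agents, so time in culture and the agents cannot be told apart. Each group has 2 libraries of ribosome-protected fragments (RPF) and 2 of RNA. The labels of 2 of these 8 libraries, a day 0 RPF and a day 0 RNA library, name a pool of 3 mice. They do not say that duplicates are separate cultures, so p-values measure only the spread between these libraries, which may be technical. Brown cultures from interscapular fat, induced with the same agents, serve below as the closest comparison.

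RPF are the stretches of mRNA that ribosomes shield from nuclease digestion, so their level follows how much of an mRNA is being translated, while RNA-seq measures the mRNA itself. Both are given as RPKM, reads scaled to the length of the coding sequence and to the size of the library. Eff, the ratio of RPF to RNA, is the translational efficiency. White preadipocytes are fibroblast-like cells that proliferate, contract and secrete collagen. On induction, Pparg and Cebpa switch on the genes of fat storage, insulin-driven glucose uptake and mitochondrial metabolism, and the cells round up as they fill with lipid. Changes are day 5 minus day 0 on the log2 scale, with the standard error of a limma fit over all 12 libraries of an assay (24 for Eff). A gene rose or fell where its Benjamini-Hochberg adjusted p over all 5035 genes was under 0.05. Since these are bulk cultures, fewer cells of a type and less RNA per cell cannot be told apart.

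The RPF libraries were shallow, with 388105 to 801901 reads on the scale of the RPKM values and a median of 21 to 44 reads per gene. The RNA libraries held 5542004 to 12307821 reads and a median of 342 to 854 reads per gene. Small RPF changes of weakly expressed genes were therefore not detectable at this depth. In RPF, 843 genes rose (16.7% of all tested) and 1816 fell (36.1%). In RNA, 1387 rose (27.5%) and 2690 fell (53.4%), and in Eff 400 rose (7.94%) and 823 fell (16.3%). These percentages are the background against which each group of genes below is to be read. The median gene fell by 0.38 in RPF and by 0.37 in RNA, and the balance of calls moved with the scaling. Of all RPF calls 31.7% were rises as deposited, 49.7% after median-of-ratios scaling (1155 rises and 1171 falls) and 47.4% after quantile scaling (1102 and 1223). For RNA the share was 34.0% as deposited and 47.4% after median-of-ratios scaling (1840 rises and 2045 falls). For Eff it was 32.7% as deposited and 52.3% after quantile scaling (457 rises and 416 falls). Without white day 5 RNA replicate 2 the Eff counts were 175 rises and 538 falls, without day 0 RNA replicate 2 they were 214 and 543, and without day 0 RNA replicate 1 there were 241 rises. The 2 assays mostly moved together. RPF and RNA both rose for 768 genes and both fell for 1578, while 51 genes fell in RPF and rose in RNA and 17 did the reverse.

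The labels were checked against marker lists. Of 20 adipocyte markers 15 were measured, and all 15 rose in both RPF (median change 3.54) and RNA (8.21). Plin1, the perilipin that coats the lipid droplet, stood at 0.523 and 0.282 RPKM in day 0 RNA and at 1381 and 1231 RPKM in day 5 RNA, a change of 11.73 ± 0.22. Its RPF went from 74.7 and 75.3 RPKM to 1197 and 1292 RPKM, a change of 4.05 ± 0.28. No duplicate overlapped between days in either assay, but the day 0 RPF was far above what its RNA would lead to at the day 5 ratio.

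Day 0 RPF carried such a signal for every gene of this kind that was kept. Genes had to have a value above 0 in all 24 libraries, so genes without day 0 footprints could not be seen here. Among the 20 genes whose RNA rose at least 64-fold, day 0 RNA was 0.0308 to 1.46% of the day 5 level (median 0.465%). Day 0 RPF of the same genes had a median of 7.71% of the day 5 level in replicate 1 and 8.43% in replicate 2. Hist1h4h apart, the RPF shares ran from 3.16% for Cfd to 13.2% for Steap4, a metalloreductase named after its values were seen. Plin1 and Car3, a carbonic anhydrase abundant in fat cells, were at 4.23 to 6.05% in RPF, and Lipe (hormone-sensitive lipase) was at 8.71 and 9.91%. Hist1h4h, a histone H4 gene described below, was at 212 and 234%, as its RPF was lower at day 5 than at day 0. A day 5 part of the day 0 RPF, set as the median excess over these genes, was 6.79 and 7.46% of the day 5 level and would make up 7.30 and 8.10% of all day 0 RPF. The same measure, over the 9 genes that met the limit in brown cultures, was 2.72 and 3.90% there. All 8 RPF libraries of the cultures carry the same lane number in the column names. Whether these reads came from the day 0 cells was not tested. If they did not, a day 0 level of this size would cap the RPF rise and the Eff change that can be measured. Eff of respiratory chain and ribosomal protein genes is therefore given below also with this part subtracted from day 0 RPF. For adipocyte markers the median Eff change went from −3.99 to −0.47 on subtraction, with 14 falls before and 4 falls and 4 rises after. It went from −1.57 to −0.82 for lipid droplet proteins and lipases. For beta-oxidation genes it went from −0.63 to 0.14, and for adipokines from −1.63 to 0.53. Many of the adipocyte markers were among the genes from which the part was set. So were Plin1, Lipe and Pnpla2 of the lipid droplet list, and Adipoq and Cfd of the adipokines. The upward move of their Eff on subtraction was thus built in and is no separate result. Subtraction left the falls in Eff of all 18 replication-type histones and all 5 elongation factors of the Eef1 and Eef2 genes in place.

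**Figure D1:**
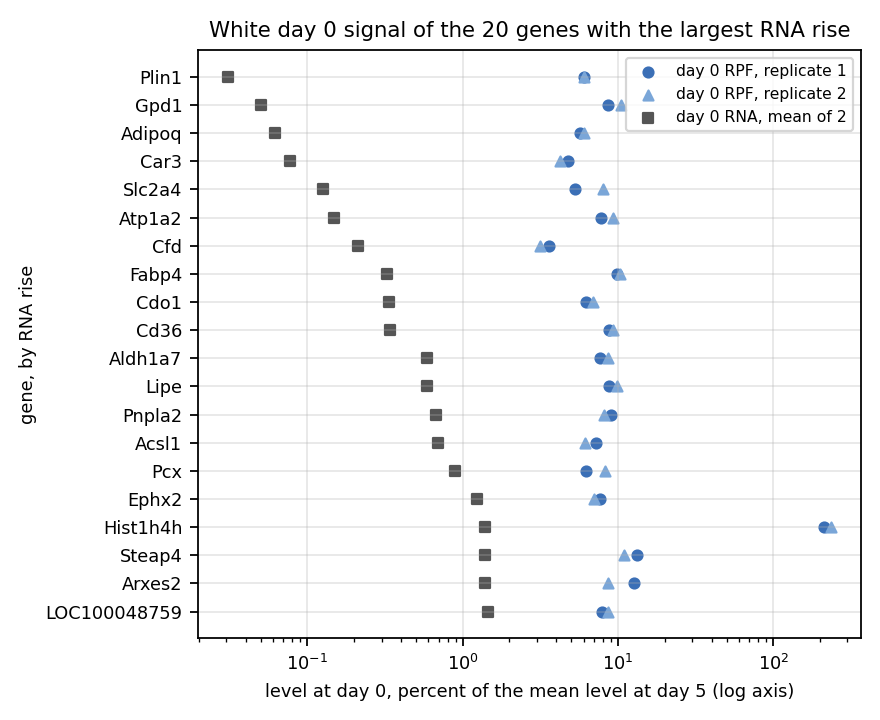
Day 0 level of the 20 genes whose RNA rose at least 64-fold in white cells, as percent of the mean day 5 level (log axis). Circles and triangles are the 2 day 0 RPF libraries, squares the mean of the 2 day 0 RNA libraries. RNA shares run from 0.0308 to 1.46%, while RPF shares, Hist1h4h apart, lie near medians of 7.71 and 8.43%.

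Most fat storage and lipid synthesis genes rose. Of 10 measured lipid droplet proteins and lipases, 8 rose and 2 fell in RPF (median change 2.51), and 8 rose and 1 fell in RNA (4.07), where 16.7% and 27.5% of all genes rose. The falls were Plin3 and Rab18 in RPF and Rab18 in RNA, both proteins that also serve membrane traffic outside fat cells, named after their values were seen. Pnpla2, the lipase that makes the first cut of triglyceride, went from 106 and 96.2 to 1234 and 1117 RPKM in RPF, a change of 3.54 ± 0.11. Its RNA went from 20.8 and 19.1 to 2953 and 2942 RPKM. Plin4, another droplet coat protein, rose by 3.37 ± 0.18 in RPF and by 4.97 ± 0.13 in RNA. Of 7 triglyceride synthesis genes, 5 rose in RPF and all 7 in RNA. Dgat1, which adds the last fatty acid, rose by 3.37 ± 0.20 and 4.35 ± 0.09, and Gpam, which adds the first, by 3.29 ± 0.20 and 3.98 ± 0.11.

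Fatty acid synthesis (14 genes measured) showed 10 rises and 1 fall in RPF, and 13 rises and 1 fall in RNA. Scd1, the stearoyl-CoA desaturase, went from 1572 and 1809 to 22209 and 21917 RPKM in RPF, a change of 3.71 ± 0.10. Fasn, fatty acid synthase, rose by 3.59 ± 0.16 in RPF and 4.45 ± 0.10 in RNA, and Acaca, which supplies its malonyl-CoA, by 3.70 ± 0.15 and 3.89 ± 0.12. Both duplicates of each gene were higher at day 5 with no overlap. Fatty acid uptake and activation (13 genes) had 8 rises and 2 falls in RPF. Lpl, the lipoprotein lipase, was already high at day 0, at 3264 and 3131 RPKM in RPF and 775 and 814 RPKM in RNA. It reached 11120.0 and 11063 RPKM in RPF and 3404 and 3041 RPKM in RNA, and its Eff change was −0.22 ± 0.12, which did not pass. All 10 measured adipokines and secreted adipocyte proteins rose in RPF (median 2.51) and 9 in RNA (4.40). Apoe, an apolipoprotein that macrophages and fat cells both secrete, rose by 3.50 ± 0.10 in RPF and 5.40 ± 0.14 in RNA.

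Mitochondrial pathways rose almost as a whole. All 16 measured genes of beta-oxidation rose in RPF (median 2.71) and in RNA (3.23), as did all 23 of the citric acid cycle (2.36 and 3.00) and all 18 of branched-chain amino acid breakdown (2.32 and 2.57). Acadl, the long-chain acyl-CoA dehydrogenase, went from 169 and 197 to 1338 and 1254 RPKM in RPF and from 76.2 and 68.9 to 693 and 690 RPKM in RNA. Hadha, a subunit of the trifunctional protein, rose by 2.59 ± 0.10 in RPF and 3.06 ± 0.08 in RNA. Pcx, pyruvate carboxylase, which refills the cycle and supplies oxaloacetate for lipid synthesis, rose by 3.80 ± 0.15 and 6.82 ± 0.10. Bckdha, a subunit of the branched-chain keto acid dehydrogenase, rose by 2.81 ± 0.14 and 4.03 ± 0.12. Acad9, a dehydrogenase that also serves complex I assembly, rose least of the beta-oxidation genes in RPF, by 0.91 ± 0.22.

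Respiratory chain and ATP synthase genes rose in RNA more than in RPF. Of 75 genes measured, 73 rose and 1 fell in RPF (median 1.86), while all 75 rose in RNA (median 2.87) and 62 fell in Eff (median −0.98), where 16.3% of all genes fell. By complex, median RPF and RNA changes were 1.77 and 2.79 for complex I (35 genes), 2.10 and 3.04 for complex II (4), 2.36 and 3.31 for complex III (9), 2.07 and 3.22 for complex IV (11) and 1.61 and 2.36 for ATP synthase (15). Atp5b, the catalytic subunit of ATP synthase, went from 1287 and 1353 to 5767 and 5761 RPKM in RPF and from 685 and 656 to 4740 and 4710 RPKM in RNA. Its Eff fell by 0.69 ± 0.10, but with the day 5 part subtracted the change was −0.15 and did not pass. Over the list, subtraction left 27 falls and 2 rises in Eff (median −0.52), and quantile scaling left 33 falls. The gene that fell in RPF was Cox7a2l, a factor of supercomplex assembly named after its values were seen. It went from 127.5 and 117.6 to 64.8 and 57.4 RPKM in RPF, while RNA rose by 0.54 ± 0.11. Mitochondrial ribosomal proteins (44 genes) had 29 rises and 1 fall in RPF (median 1.12) and 43 rises and 1 fall in RNA (1.34).

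Other metabolic groups moved the same way. Glycolysis (15 genes) had 13 rises and 1 fall in RPF (median 1.18), and Ldha, lactate dehydrogenase A, rose by 1.42 ± 0.09. Peroxisome genes (15) had 12 rises and 1 fall, and Cat, catalase, rose by 2.83 ± 0.11. Insulin signalling and glucose entry (15) had 10 rises and 3 falls. Pde3b, the phosphodiesterase through which insulin restrains lipolysis, went from 13.3 and 11.6 to 103 and 116 RPKM in RPF. Of 13 transcription factors of adipogenesis, 7 rose and none fell in RPF, and 8 rose and 1 fell in RNA. Cebpa went from 28.7 and 27.1 to 178 and 167 RPKM in RPF and from 40.5 and 44.6 to 756 and 570 RPKM in RNA. Srebf1, the driver of lipid synthesis genes, rose by 2.46 ± 0.15 and 3.70 ± 0.12. Of 21 thermogenic markers of brown fat only Ebf2 and Eva1b had values in all libraries, so the list could not be read.

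**Figure D2:**
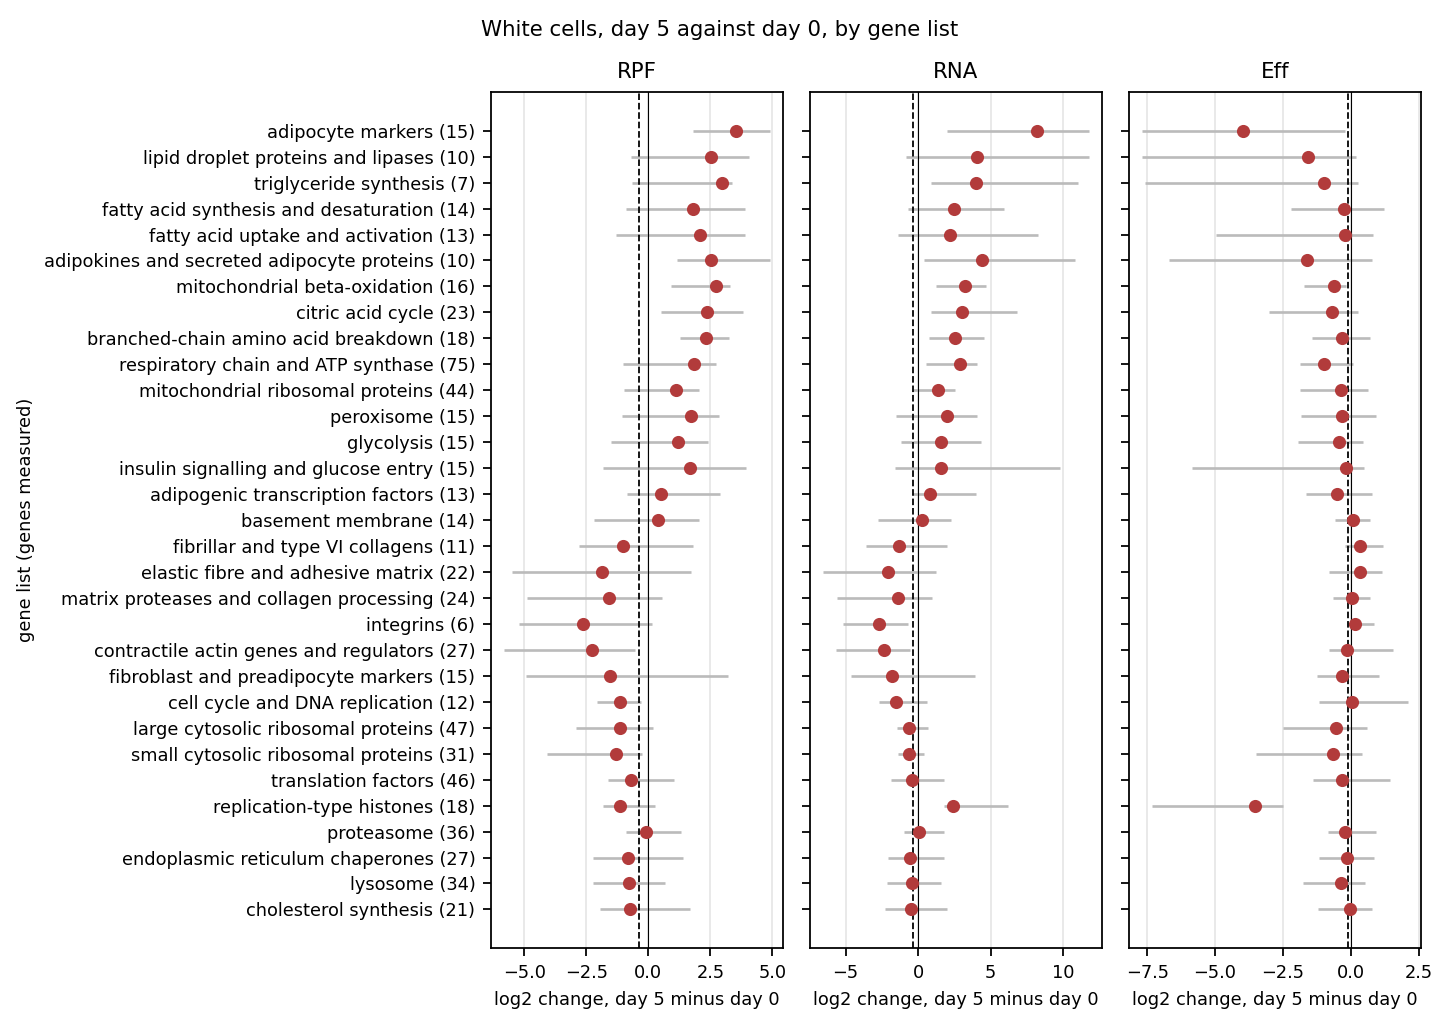
Median change (red point) and lowest to highest change (grey line) of gene lists in white cells, day 5 minus day 0 on the log2 scale, in RPF, RNA and Eff. The number of genes measured follows each name and dashed lines mark the median of all genes, −0.38, −0.37 and −0.11. In RPF and RNA, lipid and mitochondrial lists lie to the right and contractile, integrin and ribosomal protein lists to the left, while replication-type histones lie right in RNA and left in RPF. In Eff, lipid droplet (−1.57) and respiratory chain lists (−0.98) lie to the left and integrins (0.16) to the right. All values are as deposited, without subtraction of the day 5 part.

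The contractile and adhesive machinery of the preadipocyte fell in both assays. Of 27 contractile actin genes and regulators, 26 fell in RPF (median −2.29) and all 27 in RNA (−2.35), where 36.1% and 53.4% of all genes fell. Acta2, smooth muscle actin, which marks contractile fibroblasts as well as mural cells, went from 2504 and 2262 to 52.8 and 34.1 RPKM in RPF and from 1518 and 1385 to 27.1 and 30.4 RPKM in RNA. Tpm1, a tropomyosin, changed by −4.77 ± 0.19 in RPF and −4.13 ± 0.16 in RNA, and Tagln2, an actin cross-linker, by −3.41 ± 0.12 and −2.59 ± 0.13. Of 6 integrins, 5 fell in RPF and 6 in RNA. Itga11, the collagen-binding alpha 11 chain, went from 222 and 231 to 5.60 and 6.50 RPKM in RPF. Of 15 fibroblast and preadipocyte markers, 12 fell and 1 rose in each assay. The one that rose was Gsn, gelsolin, an actin-severing protein that fat cells also make, by 3.20 ± 0.09 in RPF and 3.93 ± 0.09 in RNA.

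The extracellular matrix did not fall as a block. Elastic fibre and adhesive matrix genes (22) had 18 falls and 3 rises in RPF, and matrix proteases and collagen processing genes (24) had 21 falls and 2 rises. Thbs1, thrombospondin 1, went from 2628 and 2830 to 88.7 and 102 RPKM in RPF, and Timp3, an inhibitor of metalloproteinases, from 669 and 619 to 19.6 and 24.3 RPKM. Fibrillar and type VI collagens (11) split into 6 falls and 4 rises in RPF, and 8 falls and 3 rises in RNA. Col1a1, the alpha 1 chain of collagen I, went from 6718 and 6823 to 1605 and 1687 RPKM in RPF, a change of −2.04 ± 0.09, and Col1a2 fell by 1.88 ± 0.11. Col3a1, the chain of collagen III, stood at 1787 and 1914 RPKM at day 0 and at 1841 and 1913 RPKM at day 5 in RPF. That change of 0.02 ± 0.09 did not pass, while its RNA fell by 0.49 ± 0.08. The collagen VI chains rose in RPF, Col6a1 by 0.76 ± 0.10, Col6a2 by 0.80 ± 0.12 and Col6a3 by 0.48 ± 0.13. Col6a3 RNA fell by 0.28 ± 0.08, a change that was 0.024 after median-of-ratios scaling.

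Basement membrane genes leaned upward. Of 14 measured, 8 rose and 3 fell in RPF (median 0.39), and 8 rose and 4 fell in RNA (0.27, and −0.02 after quantile scaling). Col15a1 went from 71.0 and 79.7 to 317 and 297 RPKM in RPF and from 47.7 and 47.3 to 236 and 225 RPKM in RNA, a rise of 2.03 ± 0.16 and 2.28 ± 0.08. Col18a1 rose by 1.92 ± 0.26 and 1.61 ± 0.11, and Col4a1, a chain of the collagen IV network, by 0.95 ± 0.12 and 0.99 ± 0.11. Col4a5, another collagen IV chain, went the other way, with changes of −2.18 in RPF and −2.75 in RNA by ratios of duplicate means. Sparc, a collagen-binding matrix protein of the same list, fell by 1.16 ± 0.08 in RPF, from 6571 and 6717 to 3004 and 2937 RPKM. The collagen VI genes and Col4a5 were named after their values were seen.

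**Figure D3:**
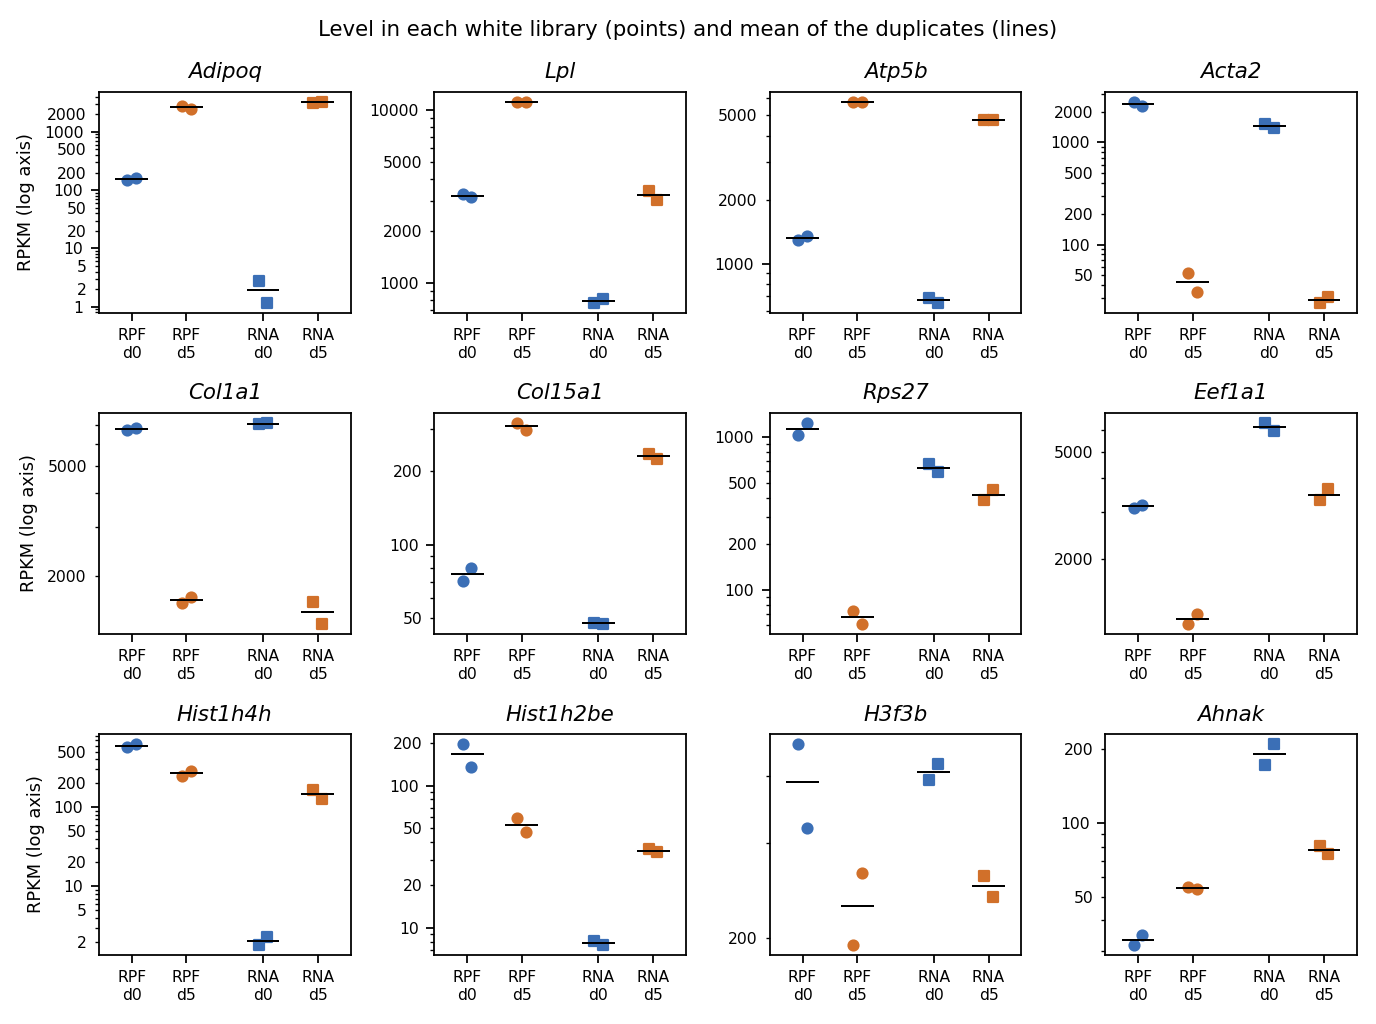
RPKM (log axis, its range set per gene) of 12 genes in each white library at day 0 (d0, blue) and day 5 (d5, orange), RPF as circles and RNA as squares, with the mean of each pair as a line. Adipoq has 149 and 160 RPKM in day 0 RPF against 2.73 and 1.18 RPKM in day 0 RNA, Acta2 and Col1a1 are lower at day 5 in both assays, Col15a1 is higher in both, and Hist1h4h, Hist1h2be and Ahnak move in opposite directions in RPF and RNA.

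Ribosomal protein genes fell further in RPF than in RNA. Of 78 cytosolic ribosomal protein genes, 70 fell in RPF (median −1.23) and none rose, where the median gene fell by 0.38. In RNA 62 fell and 2 rose (median −0.64), and in Eff 45 fell and none rose (median −0.63). The RPF falls numbered 58 after median-of-ratios scaling (median −0.89), 67 after quantile scaling and 68 with the day 5 part subtracted, and the Eff falls 41, 26 and 36. Rps27 went from 1024 and 1231 to 73.6 and 60.9 RPKM in RPF and from 664 and 591 to 389 and 449 RPKM in RNA. Its Eff fell by 3.48 ± 0.26, the lowest value among these genes. Near-identical copies such as Gm9846 share its reads, so the level of Rps27 alone is uncertain. Rpl14 went from 1768 and 2172 to 222 and 300 RPKM in RPF, with an Eff change of −2.51 ± 0.21, and Rplp1, a stalk protein of the large subunit, had an Eff change of −1.82 ± 0.17. Pseudogenes of many ribosomal protein genes can take or give reads, and each read was assigned to 1 site.

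Most mRNAs of ribosomal proteins and elongation factors begin with a C followed by a run of pyrimidines, the 5′ terminal oligopyrimidine (TOP) motif, through which growth signals by way of mTORC1 and LARP1 set their translation. The first bases of 5 of these genes are shown for that reason, from RefSeq on build GRCm38.p6, with 10 bases before the annotated start and 20 from it and with the run of pyrimidines at the start in capitals.
Rps27, chr3:90213629-90213658, minus strand: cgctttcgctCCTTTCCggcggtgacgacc
Rpl14, chr9:120571507-120571536, plus strand: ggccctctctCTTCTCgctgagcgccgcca
Rps18, chr17:33955646-33955675, minus strand: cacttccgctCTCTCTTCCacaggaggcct
Rpl15, chr14:18270967-18270996, minus strand: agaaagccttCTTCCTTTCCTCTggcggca
Rps6, chr4:86857348-86857377, minus strand: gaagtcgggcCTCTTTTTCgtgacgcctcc

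A start of this kind, a C at the annotated first base followed by 4 bases that are each C or T on the gene's strand, was found in 13 of the 59 ribosomal protein genes that matched the table of starts (22.0%). It was found in 813 of all 27025 genes of the table (3.01%), in 4 of 62 respiratory chain genes (6.45%), in 2 of 34 translation factors (5.88%), and in none of 39 mitochondrial ribosomal protein or 30 proteasome genes. An annotated start off by a few bases is missed. Among ribosomal protein genes the 13 with such a start had a median change of −1.29 in RPF and −0.68 in Eff, and the 46 without −1.26 and −0.66. The genes shown ran from Rps6, at −0.83 ± 0.12 in RPF, over Rpl15 (−1.15 ± 0.18) and Rps18 (−1.65 ± 0.13) to Rps27 (−4.07 ± 0.21).

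All 5 measured Eef1 and Eef2 genes, elongation factors, fell in RPF (median −1.50), RNA (−0.83) and Eff (−0.74). After quantile scaling 3 of them fell in Eff (median −0.64). Eef1a1, which carries aminoacyl-tRNA to the ribosome, went from 3109 and 3184 to 1159 and 1253 RPKM in RPF and from 6392 and 5984 to 3313 and 3632 RPKM in RNA, an Eff change of −0.55 ± 0.12. Eef2, the translocase, had an Eff change of −0.98 ± 0.13. The wider list of 46 translation factors was mixed, with 27 falls and 5 rises in RPF and 12 falls and 7 rises in Eff. After quantile scaling the Eff balance turned to 14 rises and 7 falls. Eif4ebp1, a translation repressor that binds eIF4E and that mTORC1 inactivates, rose by 1.05 ± 0.29 in RPF and 1.79 ± 0.10 in RNA. Eif4ebp1, Rps6 and Rpl15 were named after their values were seen, as were Rps28 and Zfp36l2 below.

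Replication-type histone genes moved in opposite directions in RNA and RPF. All 18 measured rose in RNA (median 2.42) and fell in Eff (−3.55), while 14 fell and none rose in RPF (−1.15). Brown cultures showed this too, with all 18 rising in RNA (median 2.02) and falling in Eff (−3.21). In brown RPF 9 fell and 2 rose. The direction in RNA and Eff was the same for all 18 after median-of-ratios and quantile scaling. In RPF, 9 and 8 still fell, and 1 rose after median-of-ratios scaling. Hist1h4h, a histone H4 gene, went from 1.83 and 2.25 to 167 and 127 RPKM in RNA but from 572 and 629 to 249 and 290 RPKM in RPF, an Eff change of −7.32 ± 0.28. Hist1h2be (H2B) went from 8.12 and 7.60 to 35.6 and 33.9 RPKM in RNA and from 197 and 135 to 59.1 and 47.5 RPKM in RPF. Hist2h2aa1 (H2A) rose by 3.45 ± 0.18 in RNA and had an Eff change of −4.05 ± 0.25. Of the histone genes in this and the next paragraphs, Hist1h4h and Hist1h2be met the rule for named genes and the others were named after their values were seen. The 5 variants made outside replication (H2af and H3f3 genes) had a median RNA change of −0.17, with 2 falls and no rise in RNA and 1 fall in Eff. H3f3b, an H3.3 gene, fell by 0.71 ± 0.10 in RNA and 0.76 ± 0.20 in RPF.

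As background, replication-type histone mRNAs are made in S phase and end in a stem-loop in place of a poly(A) tail, and some are also made in a polyadenylated form that runs past the stem-loop. The labels give the sequenced molecule as polyA RNA for RPF and RNA libraries alike, so they do not tell how the RNA was selected. The stem-loops of 5 of these genes are shown because they set the class apart, read from GENCODE vM21 transcripts on GRCm38, with the loop and its stem in capitals and 7 bases on each side.
Hist1h4h, chromosome 13: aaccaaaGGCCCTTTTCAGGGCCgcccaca
Hist1h2be, chromosome 13: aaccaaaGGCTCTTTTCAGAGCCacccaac
Hist1h2bk, chromosome 13: caccaaaGGCTCTTTTAAGAGCCactaaac
Hist2h2aa1, chromosome 3: ctaaaaaGGCTCTTTTCAGAGCCacccact
Hist2h3c1, chromosome 3: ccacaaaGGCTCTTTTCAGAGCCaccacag

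A search of the sense strand of annotated coding transcripts for the histone 3′ stem-loop, with either stem and either loop of the sequences shown, found one in 12 of 17 replication-type histone genes with a transcript (70.6%), in 0 of 5 variants and in 42 of all 21877 coding genes (0.192%). In the first matching annotated transcript of each gene, the sequence reaches past the loop by 46 bases for Hist1h4h and 35 for Hist2h2aa1. It reaches past by 1861 for Hist1h2be and 1162 for Hist2h3c1. Every replication-type histone gene measured rose in RNA, so a split by annotated end can show nothing about the rise. How much of the RNA measured here was polyadenylated was not tested. Several of these genes have near-identical copies (Hist2h2aa1 and Hist2h2aa2 share the window shown), so counts of single genes are uncertain. Genes of the cell cycle and DNA replication fell in the same cells, 8 of 12 in RPF and 11 in RNA, and Pcna, the replication clamp, fell by 1.30 ± 0.18 in RPF and 1.36 ± 0.11 in RNA.

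**Figure D4:**
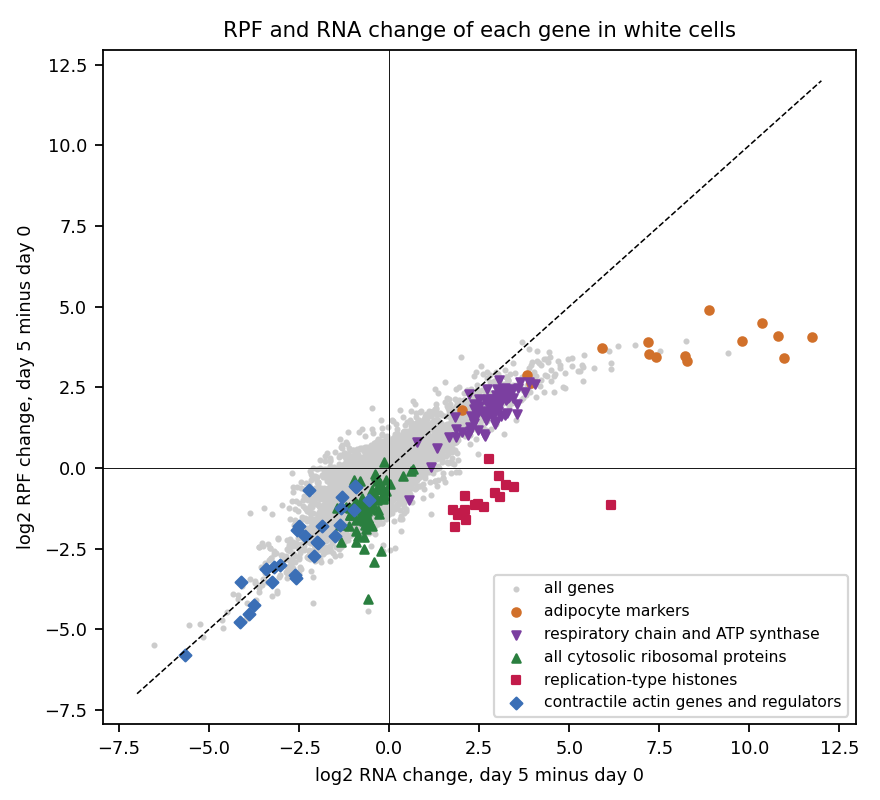
RPF change against RNA change of 5035 genes in white cells, day 5 minus day 0 on the log2 scale, with the dashed line at equal change. Adipocyte markers (orange) reach an RPF change of 4.89 while RNA reaches 11.73, respiratory chain genes (purple) lie below the line, ribosomal protein genes (green) lie at lower RPF than RNA change, and replication-type histones (crimson) sit at RNA rises of 1.77 to 6.16 with RPF at or under 0.26.

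Over all genes the slope of RPF on RNA change was 0.687. It was 0.735 without the 168 genes whose RNA rose over 8-fold and 0.846 with the day 5 part subtracted. A gene with at least a 4-fold RPF change was called translation-driven where Eff changed in the RPF direction by over 1 (log2) more than RNA, RNA-driven where RNA did so, and synergistic between. Of 489 such genes 420 were RNA-driven, 58 synergistic and 11 translation-driven, and those 11 all fell. They included Rps27, Rpl14, Rplp1 and Rps28, and Zfp36l2, an RNA-binding protein that promotes mRNA decay, whose RPF went from 44.3 and 60.3 to 7.72 and 12.4 RPKM while RNA stayed between 73.4 and 98.7 RPKM. With the day 5 part subtracted, 10 of the 11 kept their class. Without day 5 RPF replicate 1 or 2 the number was 17 or 24. Of the synergistic genes 5 rose and 53 fell. Among those that rose was Clpb, a mitochondrial disaggregase, whose RPF went from 8.87 and 3.60 RPKM (7 and 4 reads) to 55.2 and 67.2 RPKM (90 and 53 reads).

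Eff moved with coding length. Its change had a Spearman correlation of 0.40 with coding length across the 4770 genes with a known length. These points share libraries and are not independent. The median Eff change ran from −0.56 in 609 genes with up to 600 coding bases over −0.30, −0.07 and 0.14 to 0.44 in 332 genes over 4800 bases. Most of this lay in RNA (correlation −0.24), and RPF change had a correlation of −0.00. The 400 genes that rose in Eff had a median coding length of 2789 bases, the 823 that fell 887, and all genes 1511. In brown cultures the correlation of Eff change was −0.09. Differences between duplicates of white RNA also moved with length, with a correlation of −0.33 for the log2 ratio of replicate 1 to 2 at day 0 and 0.20 at day 5, against −0.04 and 0.03 in RPF. The part of this length trend in the Eff changes was not tested.

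Several groups above consist of short genes. Ribosomal protein genes of up to 600 bases (54) had a median Eff change of −0.62, respiratory chain genes (56) −1.08 and mitochondrial ribosomal protein genes (24) −0.43, and the 461 other genes of that length had −0.43. Short replication-type histones (14) stood at −3.55. The 17 genes that rose in RPF and fell in RNA ran from Acbd5 with 1526 coding bases, near the median of all genes, to Ahnak with 16970 among those of known length. Ahnak, a giant scaffold protein, went from 31.9 and 35.0 to 54.8 and 53.6 RPKM in RPF and from 172 and 210 to 80.1 and 74.7 RPKM in RNA, an Eff change of 2.00 ± 0.20. Acbd5, a peroxisomal tether to the endoplasmic reticulum, had the highest Eff change that the rule for named genes gave, 2.35 ± 0.35.

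**Figure D5:**
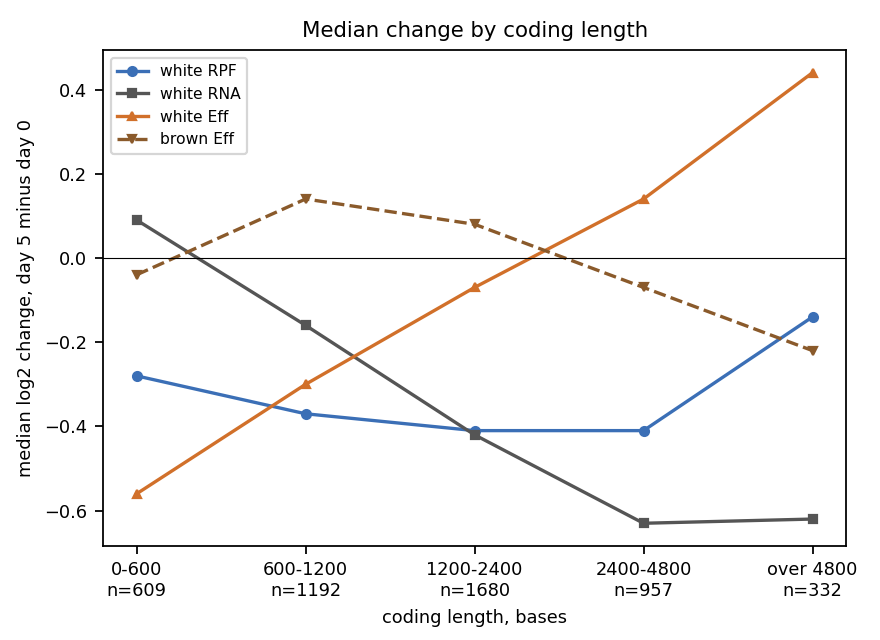
Median change, day 5 minus day 0 on the log2 scale, of genes in 5 bins of coding length (bases, number of genes under each). White Eff (triangles) runs from −0.56 to 0.44, white RNA (squares) falls with length, white RPF (circles) stays between −0.41 and −0.14, and brown Eff (dashed) stays between −0.22 and 0.14.

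Further lists mostly fell or were mixed. The 8 subunits of the cytosolic chaperonin, which folds actin and tubulin, all fell in RPF (median −0.89) and RNA (−0.70). Endoplasmic reticulum chaperones (27) had 20 falls and 3 rises in RPF, lysosome genes (34) 21 and 3, and aminoacyl-tRNA synthetases (23) 14 and 3. Cholesterol synthesis genes (21) had 13 falls and 6 rises. Insig1, which holds back the sterol-sensing SREBP system, rose by 1.69 ± 0.20 in RPF. Proteasome genes (36) had 6 rises and 6 falls in RPF, with a median of −0.10 that was 0.25 after median-of-ratios scaling. Antioxidant enzymes (22) had 6 rises and 9 falls as deposited but 9 rises and 7 falls after median-of-ratios scaling, and targets of Atf4 with serine synthesis genes (12) 2 rises and 6 falls.

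Few markers of other cell types had a value in all libraries: none of 17 endothelial, 11 mesothelial, 14 skeletal muscle or 9 red cell markers, 3 of 24 macrophage and leukocyte markers, 4 of 14 mural markers and 1 of 10 nerve and Schwann cell markers. Rows with a value in some libraries only were not analysed here, so absence cannot be read from this. The 3 macrophage markers summed to 547 and 420 RPKM in day 0 RPF and 404 and 377 RPKM at day 5. Their RNA sum was 304 and 308 RPKM at day 0 and 383 and 386 RPKM at day 5. Lyz2, a macrophage lysozyme, rose by 1.36 ± 0.11 in RNA, and its RPF change was 0.05 ± 0.23. Among mural markers, whose RPF sum went from 2953 and 2738 to 123 and 120 RPKM mostly through Acta2, Pdgfrb fell by 2.93 ± 0.19 while Cspg4 rose by 1.54 ± 0.30. Their part in the changes above was not tested.

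The change differed from that of brown cultures, by a test of the difference, for 1573 genes in RPF (31.2%), 1775 in RNA (35.3%) and 784 in Eff (15.6%). These shares count both directions together, while counts of lists below are given by direction. The brown day 0 RPF libraries are the shallowest, at 242425 and 217395 reads. Matrix genes fell less in white cells. The white RPF change was the higher for 10 of 11 fibrillar and type VI collagens, 11 of 14 basement membrane genes and 16 of 22 elastic and adhesive matrix genes, and the lower for none of these. Col3a1 differed most among the collagens, with an RPF change of 0.02 in white and −3.49 in brown cells, a difference of 3.51 ± 0.12. Lum, lumican, a proteoglycan of collagen fibrils, rose by 1.73 in white cells and changed by −2.08 in brown cells, a difference of 3.81 ± 0.39. Genes of the main mitochondrial pathways rose less in white cells in RPF as deposited. The white RPF change was the lower for 54 of 75 respiratory chain genes, 21 of 23 citric acid cycle genes and 14 of 16 beta-oxidation genes, and the higher for 1, 0 and 0. In RNA the white change was the lower for 9, 9 and 7 of these. With the day 5 part subtracted in white day 0 RPF only, the white RPF medians of these lists were 2.29, 3.02 and 3.62 in place of 1.86, 2.36 and 2.71. The brown medians, with nothing subtracted, were 2.93, 3.64 and 4.06. Subtraction can only raise the white change, and brown day 0 RPF carried a signal of this kind too. These medians therefore do not tell how far the cultures differ once the signal is removed. A smaller share differed among mitochondrial ribosomal protein genes (15 of 44 lower, 1 higher) and branched-chain amino acid breakdown (8 of 18 lower, 1 higher). Of all genes 31.2% differed, in either direction. Glycolysis also had a lower white RPF change, for 14 of 15 genes, as did the cytosolic chaperonin for 7 of 8.

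Adipocyte markers differed in RNA the other way. The white RNA change was higher for 13 of 15 and lower for none, led by Cfd, the complement factor adipsin, at 8.88 in white and 2.83 in brown cells, a difference of 6.05 ± 0.22. The white RPF change was higher for 4 and lower for 8, and the white Eff change lower for 11. The day 0 RPF of these genes was also present in brown cultures, as a share of the day 5 level, at 13.7% for Adipoq, 14.8% for Car3 and 7.27% for Plin1, where brown day 0 RNA was at 1.78, 4.63 and 1.51%. For Cfd, which did not rise in brown RPF, it was 147%. The part of the day 0 signal in these differences was not tested.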

How the data were processed

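Libraries were made by the study's authors from RPF and from RNA, and the labels give polyA RNA for both. Per the study's methods a consensus transcriptome with the most abundant isoform of each gene was built from the RNA reads with TopHat and Cufflinks, and reads of both assays were mapped to it with Bowtie, without mismatches and with 1 site per read. The submitters' processing notes name Bowtie 1.0.0, TopHat2 2.0.9 and cutadapt 1.8.3. The genome build of the table is not given in the sources used here. The deposited values are RPKM over coding sequence. Rows with a value in some libraries only (11164) or in none (6219) were left out, since the rule asks for a value above 0 in all 24 libraries.

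RPKM were taken as log2 with no pseudocount and fitted with limma 3.58.1 (R 4.3.3), with a trend in the prior variance and 1 mean per group. RPF and RNA were fitted over their 12 libraries each, and Eff as the interaction of assay and day over all 24, with Benjamini-Hochberg adjustment over all 5035 genes. Classes and the slope used ratios of duplicate means. For depth and for a voom fit, RPKM were turned back into reads with the coding length of each gene. Of the values, 98.7 to 99.0% per library came out whole within 0.05 reads. Replicate numbers were not taken as pairs. The correlation of deviations of same-numbered libraries was −0.00288 in RPF and −0.188 in RNA between days. The alternatives were a pseudocount of 1, median-of-ratios and quantile scaling, a minimum mean of 5 RPKM, no trend, only the groups compared, voom, weights per assay, a replicate block, leaving out each library, and subtraction of the day 5 part. Subtraction was made in white day 0 RPF only. Values left at or under the lowest of the library, 10 and 12 genes in the 2 libraries, were set to that lowest value. The RPF and RNA tests were run on simulated data.

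Named genes were the 10 highest and lowest changes per assay, up to 4 members of each list by adjusted p in RPF, genes the study names, class members, measured cell type markers and the largest differences from brown cells. Others are marked where they appear. Members and lists were chosen with earlier results of these data known. Motifs were searched in RefSeq promoters (GRCm38.p6) and GENCODE vM21 transcripts.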

Additional observations from a re-analysis of the deposited data

Results flagged for a closer look

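The 5 highest and 5 lowest differences between the white and the brown change (white minus brown, log2), among genes past limma's test of that difference, are given for each assay. The adjusted p ranged from 6.29e-11 to 0.0174.

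In RPF, the white change was the higher for Cfd by 5.45 (4.89 in white and −0.56 in brown cells), for Sned1, a matrix protein, by 4.56 (0.50 and −4.06), for Lum by 3.81 (1.73 and −2.08), for Gas6, a ligand of TAM receptors, by 3.65 (−0.73 and −4.38) and for Col3a1 by 3.51 (0.02 and −3.49). The difference was −2.87 for Ifrd1, −2.76 for the galectin gene Lgals3, −2.74 for LOC101056592, −2.64 for Spg20 and −2.63 for Hibch, an enzyme of valine breakdown. Ifrd1, Lgals3 and Spg20 fell in white RPF and had positive changes in brown RPF, while LOC101056592 and Hibch had positive changes in both.

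In RNA, the difference was 6.05 for Cfd, 5.91 for Car3, 5.68 for Plin1, 4.98 for Adipoq and 3.74 for Apoe (5.40 in white and 1.66 in brown cells). It was −2.55 for Ogt, the O-GlcNAc transferase, −2.51 for Clk1, a kinase of splicing factors, −2.40 for Zfc3h1, −2.30 for Sfrs18 and −2.13 for Esf1.

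In Eff, the difference was 3.10 for Ccnl2, a cyclin linked to splicing, 2.63 for Scaper, 2.62 for Leng8, 2.57 for Macf1, a giant cytoskeletal linker, and 2.52 for Pcnx. It was −5.55 for Plin1, −5.20 for Gpd1, −4.19 for Car3, −3.79 for Adipoq and −3.01 for Fabp4. The RPF of these last 5 genes at day 0 belongs to the signal of day 5 genes described above, and 3 of the 5 differences changed sign on subtraction (values below). Subtraction was made in white day 0 RPF only, so the change of sign does not compare like with like.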

How the results depend on the processing

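With 2 libraries a group, counts of Eff calls moved most when 1 of 3 RNA libraries was left out, both of day 0 and replicate 2 of day 5. Median-of-ratios scaling gave 1171 falls in RPF. Falls in Eff numbered 416 after quantile scaling and 514 with the day 5 part subtracted. Leaving out single libraries gave 175 to 362 rises and 538 to 776 falls in Eff, 499 to 838 white-to-brown Eff differences and 11 to 24 translation-driven genes. The low ends of Eff came without day 5 RNA replicate 2 (175, 538 and 499), day 0 RNA replicate 2 (214, 543 and 500) and day 0 RNA replicate 1 (241 rises). The slope was 0.735 without genes whose RNA rose over 8-fold and 0.846 on subtraction. Translation-driven genes numbered 17 at a class limit of 0.5, 24 at a 3-fold and 3 at a 6-fold RPF change. Synergistic genes numbered 28 at a limit of 0.5, 94 at 1.5, 183 at 3-fold and 10 at 6-fold, and RNA-driven genes 189 at 6-fold. The day 5 part was 7.72% at a 32-fold RNA rise.

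Changes that turned sign with a call in the main or the alternative fit were −0.23 for Col3a1 RPF after quantile scaling, and 0.024 for Col6a3 RNA after median-of-ratios scaling. With the day 5 part subtracted, Eff changes were 0.86 for Adipoq and 2.90 for Car3 (0.82 and 2.86 with median-of-ratios scaling too), and the white-to-brown Eff differences 0.98 for Plin1, 3.78 for Adipoq and 4.57 for Car3 (0.98, 3.78 and 4.57 with both). Day 0 RPF of Plin1, Adipoq and Car3 lay under the part subtracted in both white libraries, so it was set to the lowest value of the library. Their Eff values after subtraction rest on that floor. Their differences from brown cells also rest on brown day 0 RPF with nothing subtracted. These genes were also among those from which the part was set. The cause of the day 0 signal was not tested. Subtraction with scaling, and a crossed pairing of RNA libraries, were chosen after seeing the data. With a replicate block RPF had 827 rises and 1803 falls, RNA 1388 and 2690, and Eff 392 and 804. The crossed replicate block gave 1371 and 2667 in RNA and 365 and 779 in Eff. Of the values of single genes under the alternatives run, 2744 kept their call status, 39 lost the call and 4 gained it. A further 12 turned sign with a call in the main or the alternative fit. A sign change with no call in either fit is counted among the 2744.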
